A study of Mus musculus with 7 samples.

Results

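ATP-binding cassette (ABC) transporters, organic anion transporting polypeptides (Slco genes) and the Slc22a organic ion transporters are membrane proteins that move lipids, bile acids, hormones, drugs and metabolites. The 90 genes described here are those whose mouse symbol starts with Slco, Slc22a or Abca to Abcg followed by a number and that had at least 1 named probe, out of 21154 genes named on the array. They comprise 50 ABC, 26 Slc22a and 14 Slco genes, read by 113 probes. A single probe stood for 69 of them and several for 21, and 1 further gene of these families, Slco6b1, had no probe. In all, 77 genes could be tested and 13 could not.

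The study's title concerns ectopic hair outgrowth and fibrosis after activation of β-catenin, which carries the Wnt signal to the genome, in the dermal sheath, the mesenchymal layer around the hair follicle. Cells were sorted from mouse dorsal skin at postnatal day 15 by the same gate in both groups: YFP+ and CD34-, ALP- (alkaline phosphatase) and ITGα8- (integrin α8). The control-labelled group held 3 arrays from 4 mice, with 2 mice pooled on array 3. The group labelled as β-catenin activation, cΔex3, held 4 arrays from 6 mice, with mice pooled on arrays 2 and 3. The Cre driver, the strain and the alleles of the controls are not given in the sources used here, and in bulk RNA fewer cells of a type and less RNA per cell cannot be told apart.

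ABC transporters bind and hydrolyse ATP to push substrates across a membrane, most often out of the cell or into an organelle. Slco and Slc22a proteins use no ATP of their own and mostly carry organic anions, cations and zwitterions into cells. In the liver the 2 kinds work in series: uptake carriers on the blood side of the hepatocyte feed enzymes inside the cell, and ABC pumps on the bile canaliculus, the duct side, discharge bile acids, conjugates, phospholipid and sterols. In mesenchymal cells and fat the better known members are multidrug pumps, cholesterol exporters, monoamine carriers and the sulphonylurea receptor subunits of potassium channels.

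Levels are given as log2 of the background-corrected fluorescence minus the 75th percentile of the same array, so that 0 is the array's 75th percentile, and differences are cΔex3-labelled minus control-labelled means with their standard error (SE). Array values are listed as control 1 to 3 and then cΔex3 1 to 4. A gene passed the test at an adjusted p under 0.05 from limma, adjusted over 18031 genes. Each gene is read by its own probe, so levels are compared between arrays and never between genes.

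The arrays labelled dermal sheath carried strong hepatocyte and adipocyte signals. All 15 hepatocyte markers, such as albumin (Alb), were lower in the cΔex3-labelled group, with a median difference of -9.02. Their summed level lay between 6350 and 8220 on the control-labelled arrays and was 15.1, 75, 50.3 and 75.3 on cΔex3-labelled arrays 1 to 4. Of 10 adipocyte markers, 9 were higher (median difference 5.79), with sums of 308 to 442 against 1230 to 2410. Dermal sheath and fibroblast markers, such as the contractile gene Acta2, were higher for 9 of 10 (median 2.99), with sums of 176 to 199 against 483 to 734. Each of these 35 markers was above background on at least 3 arrays of both groups, so that none was absent from either. Epididymis markers summed to 0.141 to 0.196 in the controls and to 0.84, 25.8, 149 and 939 in the cΔex3-labelled group, and germ cell markers to 0.733 to 1.06 against 17.4, 11.3, 8.68 and 159. Their part in the transporter results was not tested.

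Promoter sequence was matched from RefSeq (GRCm38.p6) for 72 of the 90 genes, and those shown belong to neighbours whose levels differed together or in opposite directions. Each is the stretch upstream of the annotated start, read 5′ to 3′ on the gene's strand, 250 bases long except for Abcg8, with capitals marking matches to the motifs spelled out with the promoter counts later. Slco1b2, a hepatocyte uptake carrier, lies in the Slco1 gene run on chromosome 6 (chr6:141629268-141629517, plus strand). Abcg8 is transcribed away from Abcg5, and the sequence is the 109 bases between their starts (chr17:84683012-84683120, plus strand as for Abcg8). Abcb1b and Abcb4 are neighbours on chromosome 5 (chr5:8797897-8798146 and chr5:8893471-8893720, both plus strand), and Slc22a3 is a neighbour of Slc22a2 on chromosome 17 (chr17:12507705-12507954, minus strand).
Slco1b2: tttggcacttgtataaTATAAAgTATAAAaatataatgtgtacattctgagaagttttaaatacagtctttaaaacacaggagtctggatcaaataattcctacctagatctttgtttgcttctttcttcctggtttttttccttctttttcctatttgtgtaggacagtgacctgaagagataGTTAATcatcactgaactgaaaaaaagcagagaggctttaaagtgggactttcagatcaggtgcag
Abcg8: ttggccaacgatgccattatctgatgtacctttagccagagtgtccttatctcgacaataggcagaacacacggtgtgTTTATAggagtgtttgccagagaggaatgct
Abcb1b: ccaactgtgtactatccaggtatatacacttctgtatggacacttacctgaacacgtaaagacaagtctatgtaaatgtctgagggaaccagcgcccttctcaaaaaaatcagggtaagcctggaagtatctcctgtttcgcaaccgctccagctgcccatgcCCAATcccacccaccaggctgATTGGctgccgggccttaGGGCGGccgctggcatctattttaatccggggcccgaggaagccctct
Abcb4: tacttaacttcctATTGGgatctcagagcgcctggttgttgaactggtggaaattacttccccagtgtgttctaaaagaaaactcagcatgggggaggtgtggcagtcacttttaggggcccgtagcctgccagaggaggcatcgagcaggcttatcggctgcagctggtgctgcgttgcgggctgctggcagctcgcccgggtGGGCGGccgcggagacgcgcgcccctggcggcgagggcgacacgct
Slc22a3: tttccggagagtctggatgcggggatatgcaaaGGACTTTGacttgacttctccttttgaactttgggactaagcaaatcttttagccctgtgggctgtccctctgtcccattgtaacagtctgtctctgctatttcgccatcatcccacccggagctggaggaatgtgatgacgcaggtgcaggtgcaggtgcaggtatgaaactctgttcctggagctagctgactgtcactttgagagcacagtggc

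Among the 77 genes tested, 33 (42.9%) were lower in the cΔex3-labelled group, against 28.5% of all genes tested, and 16 (20.8%) were higher, against 24.3%. The groups' arrays did not overlap for 52 of the 77 (67.5%), against 58.4% of all genes. The median difference was -0.51, beside -0.06 over all genes, and single genes ran from -10.36 to 3.83 with genes dim in a group taken at their bound. Of the falls, 30 were at least 2-fold and 21 at least 8-fold, while all 16 rises were at least 2-fold and 6 at least 8-fold. Over all 18031 genes tested, 3580 falls were at least 2-fold and 963 at least 8-fold. The rises over all genes numbered 3658 and 1264 at these sizes. By family, 10 of the 45 tested ABC genes rose and 20 fell, 5 of 21 Slc22a genes rose and 10 fell, and 1 of 11 Slco genes rose and 3 fell. Both directions occurred in every family, as the plot of differences by role shows.

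**Figure D1:**
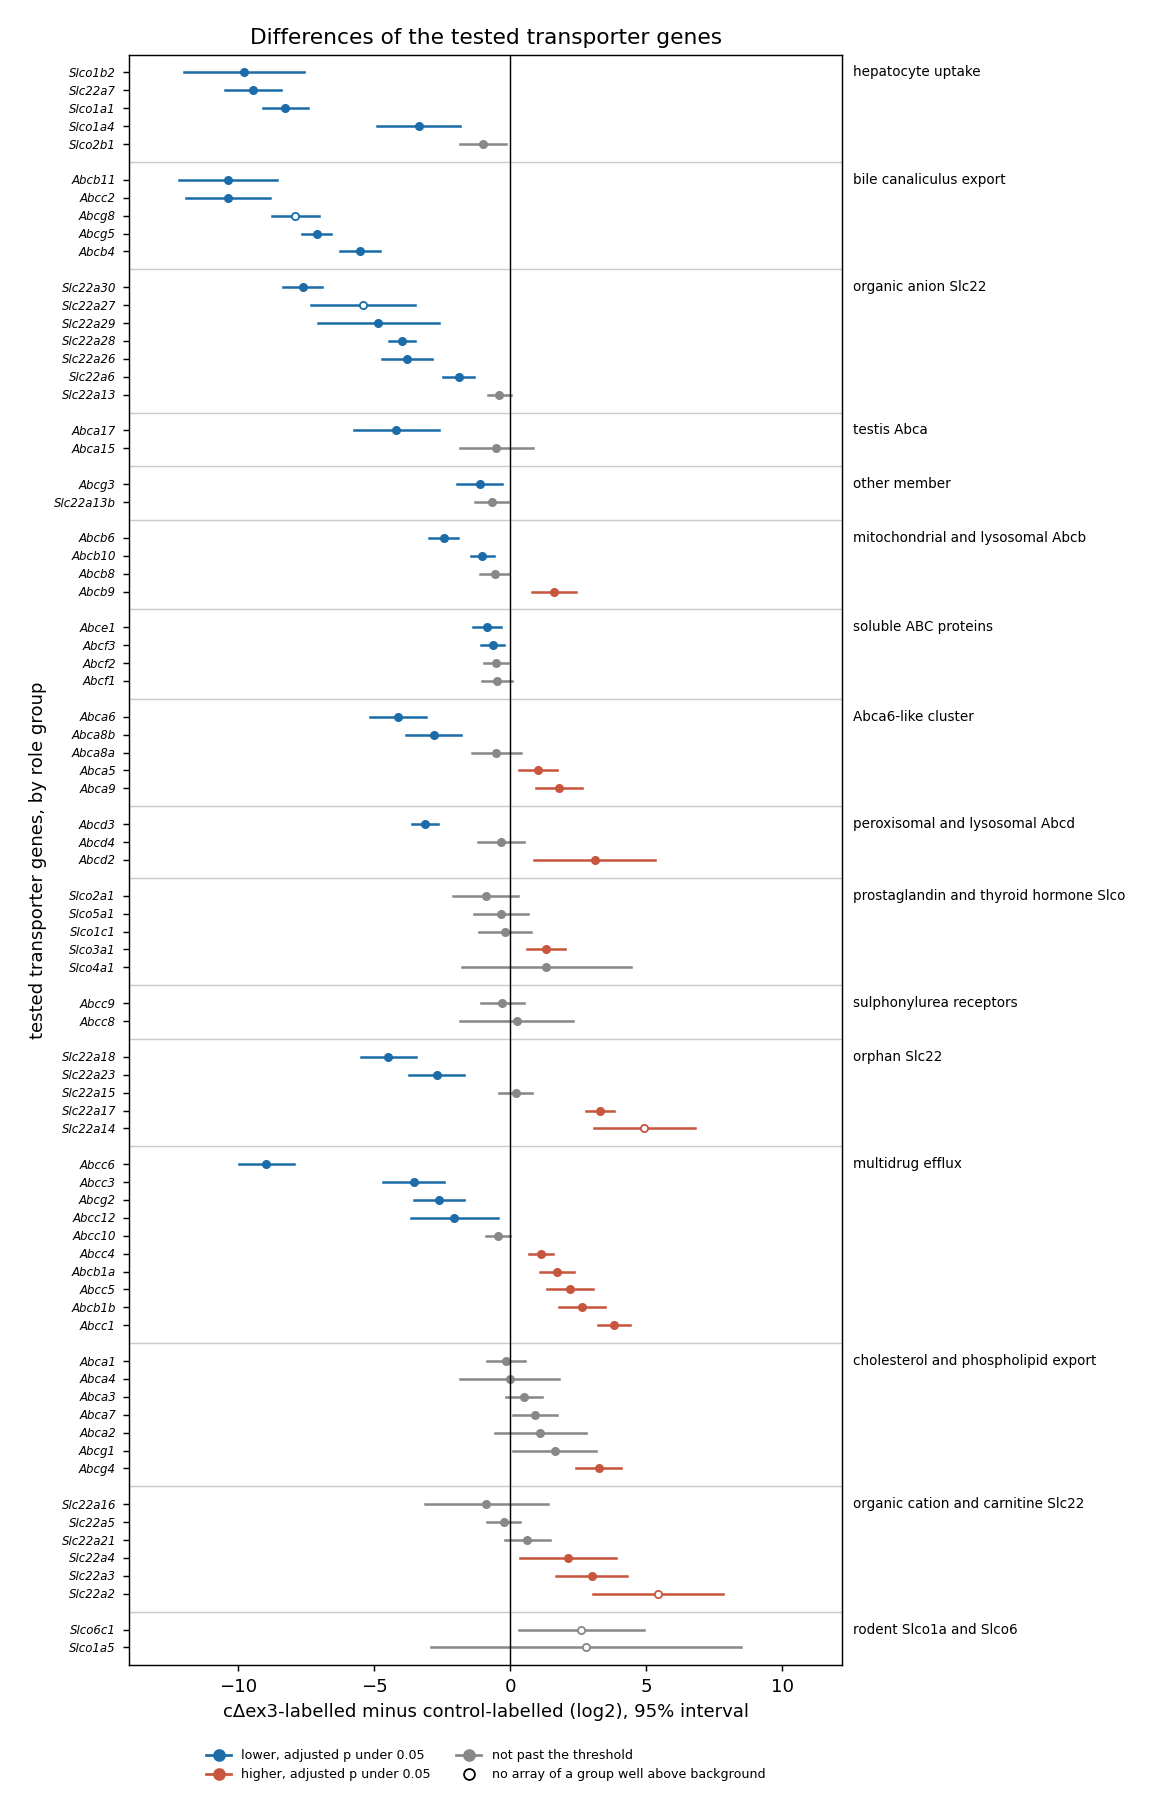
Difference of 74 tested transporter genes (x axis, cΔex3-labelled minus control-labelled, log2, with the 95% interval of the limma fit) by role group (y axis), coloured by direction where the adjusted p was under 0.05 and grey otherwise. Hollow points mark genes with no array of a group well above background, whose fitted differences are not measured sizes. The liver uptake and canaliculus groups lie farthest to the left, and 30 of the genes drawn are lower and 16 higher.

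The hepatocyte uptake group held 6 genes, of which 5 fell and 0 rose (median difference -7.90). Slco1b2, which carries bile acids and bilirubin from the blood, stood at 8.01, 8.25 and 8.10 in the controls and at -4.25, -0.86, -1.51 and 0.02 in the cΔex3-labelled group. All control values lay far above all cΔex3 values, and array 1 was the lowest of the latter. Its difference was -9.77 ± 0.93 (SE; 3 and 4 arrays; adjusted p = 0.000224). Slc22a7, an organic anion carrier of liver and kidney, read 4.12, 3.38 and 3.57 against -6.49, -5.09, -6.33 and -5.05, with 3 of the 4 low arrays above background, and fell by 9.44 (SE 0.44). Slco1a1, a sinusoidal organic anion carrier, had levels of 3.64, 4.02 and 2.97 and then -5.11, -4.69, -4.95 and -4.06 (difference -8.25 ± 0.35). In none of these 3 genes did an array of one group reach the other group's range.

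The remaining uptake genes moved less. Slco1a4, also found at the blood-brain barrier, was at 0.65, 1.39 and -1.54 in the controls and at -3.03, -3.52, -3.24 and -2.97 in the cΔex3-labelled group. Control array 3 was well below the other controls, and the groups still did not overlap (difference -3.36 ± 0.65, adjusted p = 0.00464). Slco2b1, a carrier of steroid sulphates with a wide tissue range, was the gene just outside the threshold. It read 4.47, 4.59 and 3.75 against 3.91, 3.35, 3.29 and 2.56, with control array 3 inside the other group's range, and differed by -0.99 ± 0.36 (adjusted p = 0.0531). Without control array 3 the value was -1.25 (adjusted p = 0.0402), and without cΔex3 array 1 it was -1.20 (adjusted p = 0.0306), so single arrays set the side of the threshold. Its second probe gave -0.93 ± 0.35.

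All 5 genes of the bile canaliculus group fell (median difference -7.89, or -7.10 with Abcg8 taken at its bound). Abcb11, the bile salt export pump, read 6.47, 6.82 and 6.05 in the controls against -6.04, -2.95, -3.64 and -3 in the cΔex3-labelled group, a difference of -10.36 ± 0.76 (adjusted p = 7.56e-05). Abcc2, which exports bilirubin and other conjugates, stood at 4.35, 4.33 and 4.05 against -7.61, -6.16, -6.19 and -4.50, and also differed by -10.36 (SE 0.65). Only cΔex3 array 4 was above background for Abcc2, so its size rests mostly on dim spots and moved with the background step. After normexp background correction and quantile normalisation it was -7.63, beside -8.76 for Abcb11 and -8.88 for Slco1b2, and on the deposited log2 values the 3 were at -7.64, -8.67 and -8.78, so that their order was not fixed.

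Abcg5 and Abcg8 encode the subunits of a single sterol exporter. Abcg5 had levels of 5.75, 5.43 and 4.96 against -1.61, -1.58, -1.81 and -1.87 (difference -7.10 ± 0.22, adjusted p = 7.91e-06). Abcg8 read -0.26, -0.22 and -0.80 in the controls and was not well above background on any of the 4 cΔex3-labelled arrays, where its signals were -8.47, -7.71, -7.97 and -9.12. It was at least 63.7-fold lower, where the bound sets the control mean against the higher, on each dim array, of the probe's own signal and the lowest signal well above background. Abcb4, the phosphatidylcholine floppase of bile, went from 6.56, 6.61 and 7.09 to 1.51, 1.37, 1.55 and 0.49 (difference -5.52 ± 0.31). The spread among cΔex3-labelled arrays thus differed within the group, with an SD of 1.46 for Abcb11 and 0.14 for Abcg5.

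Array 1 had the lowest hepatocyte marker sum of the cΔex3-labelled group (15.1) and array 4 the highest (75.3). Over the 8 uptake and canaliculus genes above background on all 4 of these arrays, arrays 1 and 4 were each the lowest for 3 genes, and arrays 2 and 4 were each the highest for 3. Slco1b2, Slco1a1 and Abcb11 were lowest on array 1, whereas Slco2b1, Abcb4 and Abcg5 were lowest on array 4. The falls of all 10 genes that passed were kept under each of the 20 processing alternatives that gave a value.

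**Figure D2:**
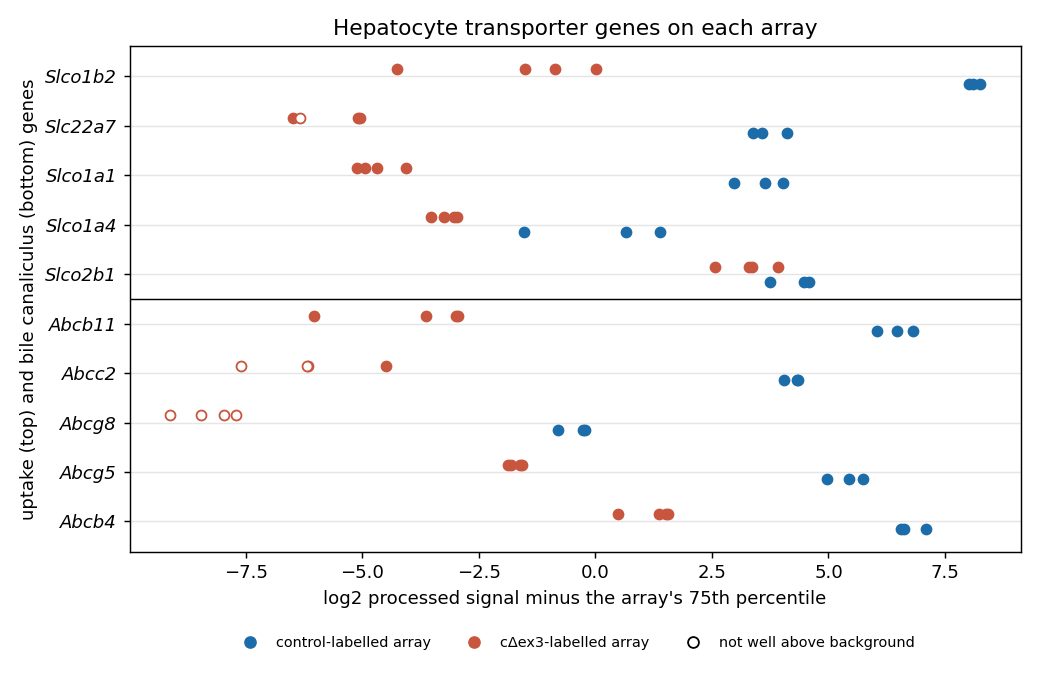
Level of 5 uptake genes and the 5 bile canaliculus genes (y axis) on each array (x axis, log2 processed signal minus the array's 75th percentile), 3 control-labelled and 4 cΔex3-labelled, with hollow points for spots not well above background. The 2 groups overlap for Slco2b1 alone, and Slco1b2 and Abcb11 have a cΔex3-labelled array, array 1, well below the others.

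Organic anion Slc22 genes, most of them known from kidney and liver, counted 12, of which 7 were tested, 6 fell and 0 rose. Slc22a30 read 1.93, 2.42 and 2.34 against -5.35, -5.40, -6.00 and -4.79, with 2 of 4 cΔex3-labelled arrays above background (difference -7.61 ± 0.30, adjusted p = 9.5e-06). Slc22a27 stood at -2.84, -2.92 and -0.36 on the control-labelled arrays and was above background on 0 of the 4 others, and it was at least 19.8-fold lower. Neither gene had overlapping groups.

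Slc22a28 had 2 probes that agreed in direction and disagreed in size. The probe used went from 2.85, 3.16 and 2.72 to -1.37, -0.86, -0.93 and -1.03 (difference -3.96 ± 0.20), and the other from 3.27, 3.43 and 3.16 to -9.18, -6.79, -7.35 and -5.93 (-10.60 ± 0.70), with 1 of the 4 low arrays above background. Slc22a29 differed by -4.83 ± 0.94 and Slc22a26 by -3.77 ± 0.39, each with 1 cΔex3-labelled array above background. With arrays of 1 mouse only, which leaves 2 arrays in each group, Slc22a29 was at -3.77 (adjusted p = 0.0985). Near-identical genes of this run could share signal, so their separate sizes are uncertain. Slc22a6, the renal organic anion transporter OAT1, fell by 1.88 (SE 0.24), and Slc22a13 was at -0.39 ± 0.18 without passing the test. The other 5 genes (Slc22a8, Slc22a12, Slc22a19, Slc22a20 and Slc22a22) were above background on too few arrays to be tested, 2 at most.

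Organic cation and carnitine carriers showed the opposite direction. Of 6 genes, all tested, 3 rose and 0 fell. Slc22a2, the cation transporter OCT2, was above background on 0 of 3 control-labelled arrays (-7.60, -7.54 and -7.68) and on all 4 of the others (-2.95, -0.88, -0.24 and -4.63), and it was at least 12.7-fold higher. Under background correction by normexp its fitted difference was 1.83 with an adjusted p of 0.097, so that the call depended on how dim spots were handled. Slc22a3, the extraneuronal monoamine transporter OCT3, went from -3.61, -5.10 and -4.44 to -1.41, -0.91, -0.62 and -2.63 (difference 2.99 ± 0.56, adjusted p = 0.00395), and with arrays of 1 mouse only it was at 2.34 (adjusted p = 0.0774). Both genes were lower on cΔex3 array 4 than on the other 3 arrays of its group, as was the adipocyte marker sum (1230 against 2040 to 2410). Array 4 also had the lowest sum of mesothelium markers (10.9 against 20.6 to 42.3), of which all 5 were higher (median difference 6.32). Endothelium (20.4 against 28.6 to 58.7) and fibroblast sums (483 against 571 to 734) were lowest there too, while hepatocyte, epididymis and germ cell sums, among others, were highest. The part of RNA of any of these cell types in the rises was not tested.

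Slc22a4, a carrier of the antioxidant ergothioneine, was the gene just inside the threshold. Its values of -2.06, -0.53 and -2.18 overlapped with those of 0.36, 1.21, 1.72 and -1.17, array 4 being the low one. The difference of 2.12 ± 0.75 (adjusted p = 0.0481) was lost in 13 of 20 alternatives, with 1.88 without control array 1 (adjusted p = 0.141), 1.83 without control array 3 (0.139), and 2.18, 1.89 and 1.72 without cΔex3 arrays 1, 2 and 3 (0.0861, 0.107 and 0.0947). Slc22a5, the high-affinity carnitine transporter, read 0.28, 0.87 and 0.37 against -0.10, 0.24, 0.22 and 0.72, which overlap. Its difference was -0.24 ± 0.25 (adjusted p = 0.453), and over the 20 alternatives it stayed between -0.39 and -0.06. Slc22a21 (0.63 ± 0.35) and Slc22a16 (-0.87 ± 0.96) did not pass either.

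The carnitine system around Slc22a5 was lower in part. Of 8 tested genes, 5 fell and 0 rose (median difference -1.93), among them Crot, a peroxisomal carnitine acyltransferase (-4.42 ± 0.29), and Cpt1a, the liver form of the mitochondrial one (-2.43 ± 0.30). These genes are also rich in hepatocytes, whose markers were lower too, and the part of hepatocyte RNA in these falls was not tested.

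Multidrug efflux pumps split in both directions: of 10 genes, 5 rose and 4 fell. Abcc1, the pump MRP1 that exports leukotriene and glutathione conjugates, went from -2.85, -3.23 and -2.42 to 1.25, 0.72, 1.18 and 0.85, with tight groups far apart (difference 3.83 ± 0.25, adjusted p = 4.69e-05). Abcb1b, 1 of the 2 mouse P-glycoprotein genes, read -1.53, -2.32 and -2.22 against 1.01, 0.71, 0.96 and -0.23 (2.63 ± 0.36). Its paralogue Abcb1a read -1.47, -1.65 and -1.32 against 0.43, 0.32, 0.60 and -0.38 (1.72 ± 0.26). Both P-glycoprotein genes were lowest of their group on cΔex3 array 4 and still above every control. Abcc5, an exporter of cyclic nucleotides, was at -0.68, -1.14 and 0.07 against 1.83, 1.63, 1.99 and 1.02 (2.20 ± 0.35), and its 4 probes gave 1.75 to 3.33, all past the threshold. Abcc4, which exports cyclic nucleotides and prostaglandins, rose by 1.14 (SE 0.18), with cΔex3 values as close as 0.73 to 0.86.

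Of the pumps that fell, Abcc6, Abcc3 and Abcg2 are known from liver and other epithelia. Abcc6, the hepatic ATP-release protein whose loss causes ectopic mineralisation, went from 4.96, 5.30 and 4.99 to -3.35, -4.16, -4.85 and -3.10 (difference -8.95 ± 0.43, adjusted p = 1.55e-05), and its second probe, above background on 1 of the 4 low arrays, gave -8.85 ± 0.33. Abcc3, a basolateral conjugate exporter, read 5.88, 5.92 and 5.74 against 1.62, 1.97, 1.96 and 3.65 (-3.54 ± 0.48), array 4 standing above the other 3. Abcg2, the breast cancer resistance protein, stood at 5.82, 5.43 and 6.4 against 3.52, 3.79, 3.38 and 2.42 (-2.60 ± 0.38, adjusted p = 0.00146). It remained above background on every array, at levels well over the 75th percentile in both groups. Abcc12 differed by -2.05 ± 0.68 (adjusted p = 0.0381), with its nearest arrays at -4.14 and -4.18, and lost its call in 9 of 19 alternatives, with adjusted p between 0.0538 and 0.087 without control array 1 or 3 or cΔex3 array 2, 3 or 4 (values of -1.31 to -2.17). Abcc10 was at -0.44 ± 0.18 and did not pass.

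Bile acid and drug carriers outside the 3 families went mostly the same way as the liver members: of 14 tested, 0 rose and 12 fell (median -2.15). The urate and phosphate carriers Slc17a3 and Slc17a1 had the smallest p-values, with differences of -9.61 ± 0.32 and -8.00 ± 0.34. Of 10 nuclear receptors and liver transcription factors known to control these genes, 9 fell and 0 rose (median -5.64), with Nr1h4, the bile acid receptor FXR, at -6.84 ± 0.25 and Ppara at -5.45 ± 0.26. The 15 hepatocyte markers fell on the same arrays, and the part of hepatocyte RNA in these falls was not tested.

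**Figure D3:**
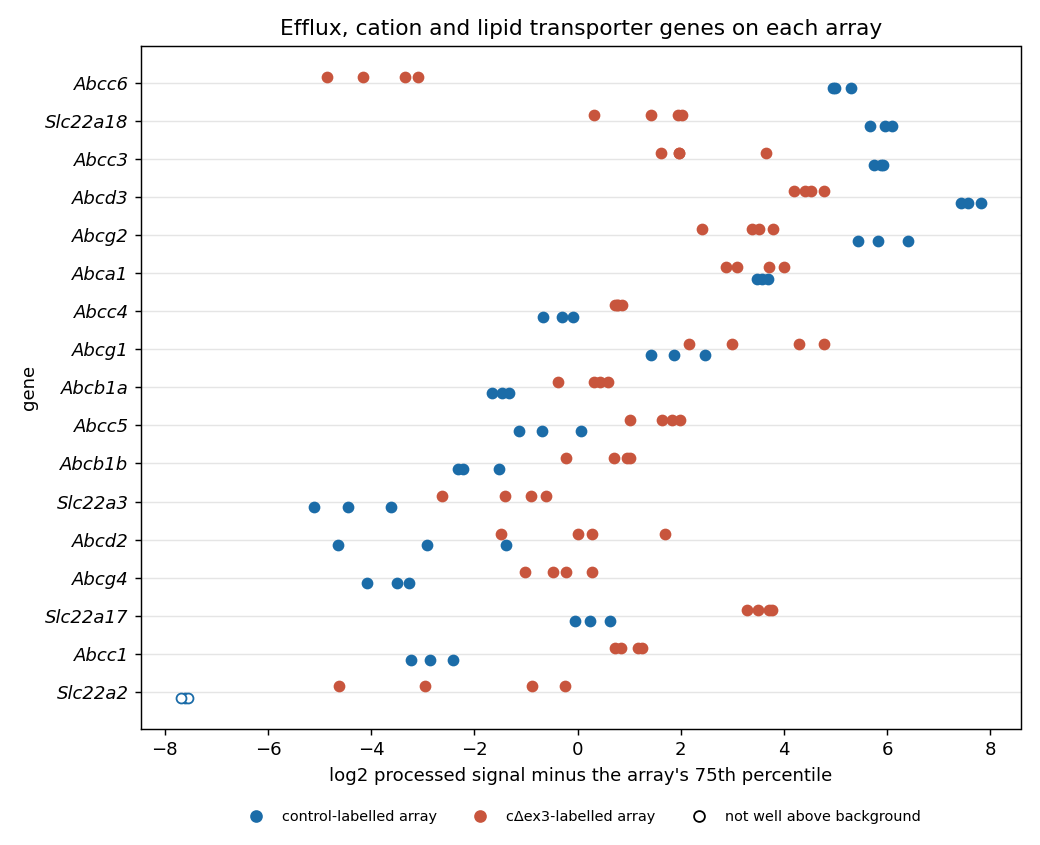
Level of 17 efflux, cation and lipid transporter genes (y axis, ordered by difference) on each array (x axis, log2 processed signal minus the array's 75th percentile), with hollow points for spots not well above background. Abcc1 and Slc22a17 have separate, tight groups, Abca1 groups overlap fully, and array 4 gives the lowest cΔex3-labelled value for Abcb1a, Abcb1b, Abcg1, Abcg2, Slc22a2 and Slc22a3.

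Cholesterol and phospholipid exporters counted 9 genes, of which 7 were tested, 1 rose and 0 fell. Abca1, which loads cholesterol onto apolipoprotein A-I, read 3.58, 3.69 and 3.48 against 4.00, 2.88, 3.72 and 3.10. The control values sat inside the range of the others, and the difference of -0.16 ± 0.30 (adjusted p = 0.682) ranged from -0.35 to 0.29 over the alternatives, changing sign in 5 of them, quantile normalisation included. Abcg1, which exports cholesterol to mature lipoprotein, read 1.86, 1.42 and 2.47 against 2.99, 4.77, 4.30 and 2.17, overlapping only through array 4. Its difference was 1.64 ± 0.65 (adjusted p = 0.0686), and it passed in 7 of 20 alternatives. Among these were quantile normalisation (1.92, adjusted p = 0.0353), array weights (2.13, 0.00467) and the fit without cΔex3 array 4 (2.10, 0.0136). Abca7, a phospholipid exporter, was at 0.90 ± 0.34 (adjusted p = 0.0616) with all arrays and 1.19 (adjusted p = 0.00321) without cΔex3 array 4. It passed in 6 of 20 alternatives, quantile normalisation (1.05, adjusted p = 0.0318) included.

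Abcg4, a sterol exporter related to Abcg1, was the gene of this group that rose. It went from -3.27, -4.08 and -3.50 to -0.23, -0.48, 0.29 and -1.02 (difference 3.25 ± 0.35, adjusted p = 0.000367). A second probe, above background on none of the control-labelled arrays, gave a fitted 5.35 ± 0.46. Abca2 (1.11 ± 0.71), Abca3 (0.51 ± 0.28) and Abca4 (-0.02 ± 0.77) did not pass, Abca12 was above background on 0 of 7 arrays, and Abca13 on 1. Of 9 tested partners in cholesterol efflux, 2 rose and 5 fell (median -1.30), led by Lcat, the plasma enzyme that esterifies cholesterol (-8.57 ± 0.22), and Apoa1, the acceptor itself (-10.55 ± 0.71). Both are secreted by hepatocytes, and the part of hepatocyte RNA in these falls was not tested.

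The Abca6-like genes are a tandem group of little-known lipid transporters on chromosome 11, and its 5 members went both ways, 2 up and 2 down. Abca6 read 2.38, 2.63 and 1.86 against -1.22, -1.91, -1.28 and -2.88 (difference -4.11 ± 0.44, adjusted p = 0.000363). Abca8b read 2.82, 2.98 and 2.94 against 0.09, 0.37, 0.97 and -0.96 (-2.80 ± 0.43). Abca9 moved up, from -1.50, -1.21 and -0.98 to 1.05, 0.43, 1.02 and -0.26 (1.79 ± 0.35), and it was at 1.76 with arrays of 1 mouse only (adjusted p = 0.0728). In all 3 the groups were apart and array 4 was the lowest of its group. Abca5 rose by 1.03 ± 0.29 (adjusted p = 0.0218), with an adjusted p of 0.0656 without control array 1 (1.03), 0.0746 without control array 3 (0.90) and 0.0539 without cΔex3 array 1 (0.99), and 0.0548 with the replicate block (0.83). Abca8a was at -0.50 ± 0.38.

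Organelle transporters mostly fell. Of 5 mitochondrial and lysosomal Abcb genes, 3 fell and 1 rose. Abcb6, a porphyrin-linked transporter, went from 3.41, 3.65 and 3.35 to 0.80, 1.16, 1.44 and 0.70 (difference -2.44 ± 0.23, adjusted p = 0.000198). Abcb10 fell by 1.02 (SE 0.18), and Abcb8 was at -0.56 ± 0.22 without passing. Abcb9, the lysosomal peptide carrier, read 1.19, 0.80 and 1.65 against 2.89, 3.02, 3.31 and 2.10 and rose by 1.62 (SE 0.34), with 1.5 on arrays of 1 mouse only (adjusted p = 0.0505). Of 14 genes of haem and iron-sulphur synthesis, 10 fell and 0 rose (median -1.30), with Cpox, a haem synthesis enzyme, at -4.19 ± 0.20.

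Peroxisomal Abcd transporters bring very long chain fatty acids into the peroxisome, and of 4 Abcd genes 2 fell and 1 rose. Abcd3, abundant in liver peroxisomes, read 7.56, 7.81 and 7.43 against 4.19, 4.41, 4.77 and 4.53 (difference -3.13 ± 0.20, adjusted p = 4.39e-05). Abcd2 went the other way, from -4.64, -2.91 and -1.39 to 0.01, 0.29, 1.70 and -1.48, with wide and slightly overlapping groups. Its difference of 3.11 ± 0.94 (adjusted p = 0.0283) had an adjusted p of 0.0913 without control array 1 (2.28), 0.0739 without control array 2 (3.14), and 0.0586, 0.0623 and 0.0544 without cΔex3 arrays 1, 2 and 3 (3.15, 3.05 and 2.58). Abcd4, a lysosomal cobalamin protein, was at -0.32 ± 0.35. Among 12 genes of peroxisome biogenesis and fatty acid oxidation, 9 fell and 0 rose (median -1.84), led by Slc27a2 (-7.52 ± 0.59) and Acox2 (-7.89 ± 0.65), both of bile acid synthesis in liver.

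The soluble ABC proteins of translation transport nothing, and of 4 tested 2 fell and 0 rose. Abce1, which splits ribosomes for recycling, read 2.77, 2.98 and 2.96 against 2.06, 1.97, 2.51 and 1.72 (difference -0.84 ± 0.22, adjusted p = 0.0159). Without control array 2 it was -0.80 (adjusted p = 0.0595) and without control array 3 -0.81 (0.0509). Abcf3 fell by 0.64 ± 0.17 (adjusted p = 0.0174), and without control array 1 or 3 its values were -0.58 and -0.64 (0.0749 and 0.0505). With the replicate block Abcf3 was at -0.60 (adjusted p = 0.0712), under quantile normalisation at -0.32 (0.11) and with arrays of 1 mouse only at -0.79 (0.0655), where Abce1 was at -0.98 (0.0515). Abcf2 (-0.51 ± 0.19) did not pass with all arrays and did without cΔex3 array 2 (-0.62, adjusted p = 0.0344), and Abcf1 was at -0.49 ± 0.23 (adjusted p = 0.117). A second Abcf1 probe passed at -0.63 ± 0.18 (adjusted p = 0.0224), as did the mean of both probes, at -0.56 (adjusted p = 0.0459). Of 9 partners in ribosome recycling and translation, 2 rose and 4 fell, with Hbs1l at -1.04 ± 0.21 and Gcn1 at 0.70 ± 0.15.

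The sulphonylurea receptors, regulatory subunits of ATP-sensitive potassium channels, did not pass. Abcc9 (SUR2), typical of vascular smooth muscle and pericytes, read 1.64, 1.69 and 1.51 against 2.03, 0.70, 1.62 and 0.96, a difference of -0.29 ± 0.33. Abcc8 (SUR1) read -0.25, -0.40 and -0.15 against -0.81, -0.83, -0.99 and 2.58, where array 4 alone is high, for a difference of 0.25 ± 0.88 with the brighter of its 2 probes. Without array 4 that probe's difference was -0.61 (adjusted p = 0.0145). The second probe went the other way, from -4.29, -5.82 and -4.15, with 2 of these 3 above background, to -1.61, -2.13, -2.99 and 2.90, a difference of 3.79 ± 1.37 (adjusted p = 0.0521). On it all 4 cΔex3-labelled arrays lay above every control, so the probes give no shared direction for arrays 1 to 3. The channel pore gene Kcnj8 rose by 1.43 ± 0.31 (adjusted p = 0.00747), and Kcnj11 did not pass. ABC proteins with other symbols, the peptide transporter subunits Tap1 (0.07 ± 0.51) and Tap2 (0.38 ± 0.43) and the chloride channel Cftr, gave 1 fall, of 1.93 ± 0.59 for Cftr. Of 7 peptide loading partners, 1 rose and 4 fell (median -0.82), among them the chaperones Calr (-1.18 ± 0.26) and Pdia3 (-1.13 ± 0.30).

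Prostaglandin and thyroid hormone carriers of the Slco family gave 1 rise among 5 tested genes. Slco2a1, the prostaglandin uptake carrier, read 3.09, 3.97 and 1.77 against 2.57, 1.80, 1.94 and 1.85, with control array 3 lowest of all. The difference was -0.90 ± 0.51 (adjusted p = 0.172), and without control array 3 it was -1.49 (adjusted p = 0.0177). Slco3a1, a broadly expressed prostaglandin and thyroxine carrier, rose from 0.74, 0.38 and 1.13 to 2.55, 1.95, 2.18 and 1.55 (1.31 ± 0.29, adjusted p = 0.00864), and its second probe gave 1.49 ± 0.27. With arrays of 1 mouse only its difference was 1.49 with an adjusted p of 0.0687. Slco4a1 (1.32 ± 1.31), Slco5a1 (-0.34 ± 0.42) and Slco1c1 (-0.19 ± 0.40) did not pass, and Slco4c1 was above background on 1 array. Around Slco2a1, 5 of 8 genes of prostaglandin handling rose and 2 fell (median 3.49, or 3.05 with the dim Ptgs2 and Ptger3 at their bounds), among them the prostacyclin synthase Ptgis (3.68 ± 0.29) and the receptor Ptger4 (3.31 ± 0.26).

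Among 5 orphan Slc22 genes, whose substrates are poorly known, 2 rose and 2 fell. Slc22a17, described as a lipocalin 2 receptor, went from 0.24, -0.05 and 0.63 to 3.72, 3.76, 3.29 and 3.50, the tightest rise of the Slc22a family by its SE (difference 3.29 ± 0.22, adjusted p = 5.41e-05). Slc22a14, a sperm gene, was above background on 0 of 3 control-labelled and 4 of 4 cΔex3-labelled arrays (-3.10, -0.85, -1.33 and -3.37) and was higher by at least 3.42 on the log2 scale. Germ cell markers were also higher on those 4 arrays, highest on array 4, where Slc22a14 was lowest. Slc22a18 read 6.10, 5.96 and 5.66 against 1.43, 2.03, 1.95 and 0.31 (-4.47 ± 0.43). Slc22a23 fell by 2.69 (SE 0.43), and Slc22a15 was at 0.21 ± 0.26.

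Genes known mainly from testis or rodents closed the set. Abca17 read 2.69, 2.08 and 0.48 in the controls against -2.64, -1.36, -2.20 and -3.52 (difference -4.18 ± 0.66, adjusted p = 0.002). Its second probe, too dim to be tested, went the other way, from -7.77, -7.70 and -7.58 to -5.55, -6.31, -5.71 and -5.59. That probe was above background on 0 control-labelled and 2 cΔex3-labelled arrays, so the fall of Abca17 rests on a single probe. Abca15 did not pass (-0.51 ± 0.57). Abca14, Slco1a6 and Slco6d1 were above background on too few arrays to be tested. Abcg3, a rodent gene, was at -1.11 ± 0.35 (adjusted p = 0.0333), a call lost in 10 of 20 alternatives, with values of -1.09 to -1.19 and adjusted p of 0.0543 to 0.09 without any 1 of the 3 control arrays or cΔex3 array 1 or 2. Slco6c1 was above background on 0 control-labelled and 3 cΔex3-labelled arrays, at a fitted 2.61 (adjusted p = 0.0562). This size rests on dim spots, and its bound was only 1.59-fold higher. Without cΔex3 array 2, where Slco6c1 was also below background, the fit gave 3.52 (adjusted p = 0.00111). Over the alternatives it ranged from 0.02 to 3.52. Slc22a13b differed by -0.68 ± 0.26 (adjusted p = 0.0617), and without cΔex3 array 3 by -0.81 (adjusted p = 0.0475).

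Several genes had their highest value on cΔex3 array 4. Slco1a5, a bile acid and thyroid hormone carrier, read -9.21, -4.98, -2.47 and 2.05 across the cΔex3-labelled arrays and lay between -7.79 and -5.73, below background, on the controls. It was above background on cΔex3 arrays 2, 3 and 4. Its 4 values ascended in the same order as the epididymis marker sums of 0.84, 25.8, 149 and 939. Abcb5 stood at 3.18 on array 4 and between -8.00 and -7.25 on the other 3, Slco4a1 at 3.05 against -2.33 to -1.83, and the brighter Abcc8 probe at 2.58 against -0.99 to -0.81. Slco4c1 (-3.21) and Abca16 (-2.71) were above background on array 4 and on no other array. All of these genes were singled out after their values had been seen, and the part of epididymis or germ cell RNA was not tested.

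**Figure D4:**
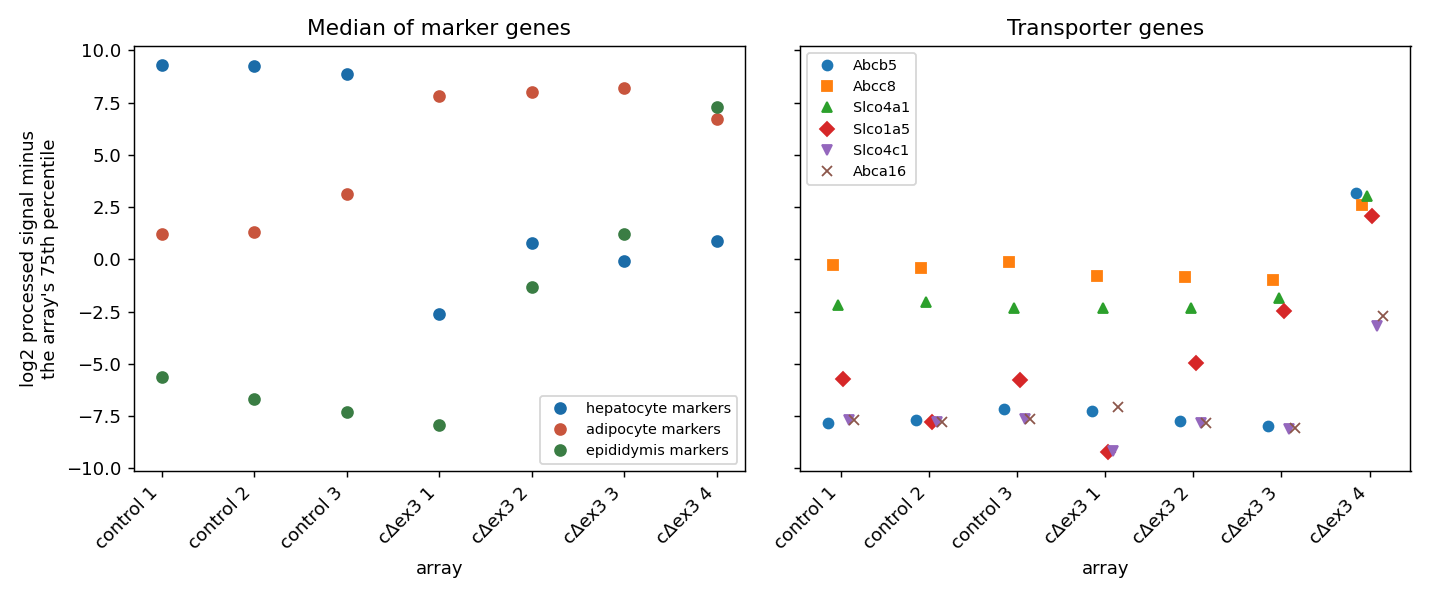
Left, median level of the hepatocyte, adipocyte and epididymis markers on each array; right, level of 6 transporter genes on the same arrays (y axes, log2 processed signal minus the array's 75th percentile; x axes, the 3 control-labelled and 4 cΔex3-labelled arrays), including spots not well above background. Epididymis markers reach a median of 7.31 on cΔex3 array 4, where Abcb5, Abcc8, Slco4a1 and Slco1a5 also have their highest values.

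Many of these genes lie close to other members. In the RefSeq order of protein-coding genes (GRCm38.p6), 41 of the 90 lie in 12 runs, and 3 runs held calls in both directions. Members of a run are adjacent or separated by a single other protein-coding gene. On chromosome 17, the neighbours Slc22a3 (2.99) and Slc22a2 (at least 12.7-fold higher) rose together. On chromosome 5, Abcb1a (1.72) and Abcb1b (2.63) rose beside Abcb4 (-5.52). On chromosome 11, the Abca6-like run alternated, from Abca8b (-2.80) through Abca8a (-0.50), Abca9 (1.79) and Abca6 (-4.11) to Abca5 (1.03). By contrast, all 6 tested genes of the 8-gene Slc22a run on chromosome 19 fell, from -1.88 for Slc22a6 to -7.61 for Slc22a30. In the Slco1 run on chromosome 6, the 3 genes Slco1b2, Slco1a4 and Slco1a1 fell while their outer neighbours Slco1c1 and Slco1a5 did not pass, and Abcg5 and Abcg8 fell together from starts 109 bases apart.

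**Figure D5:**
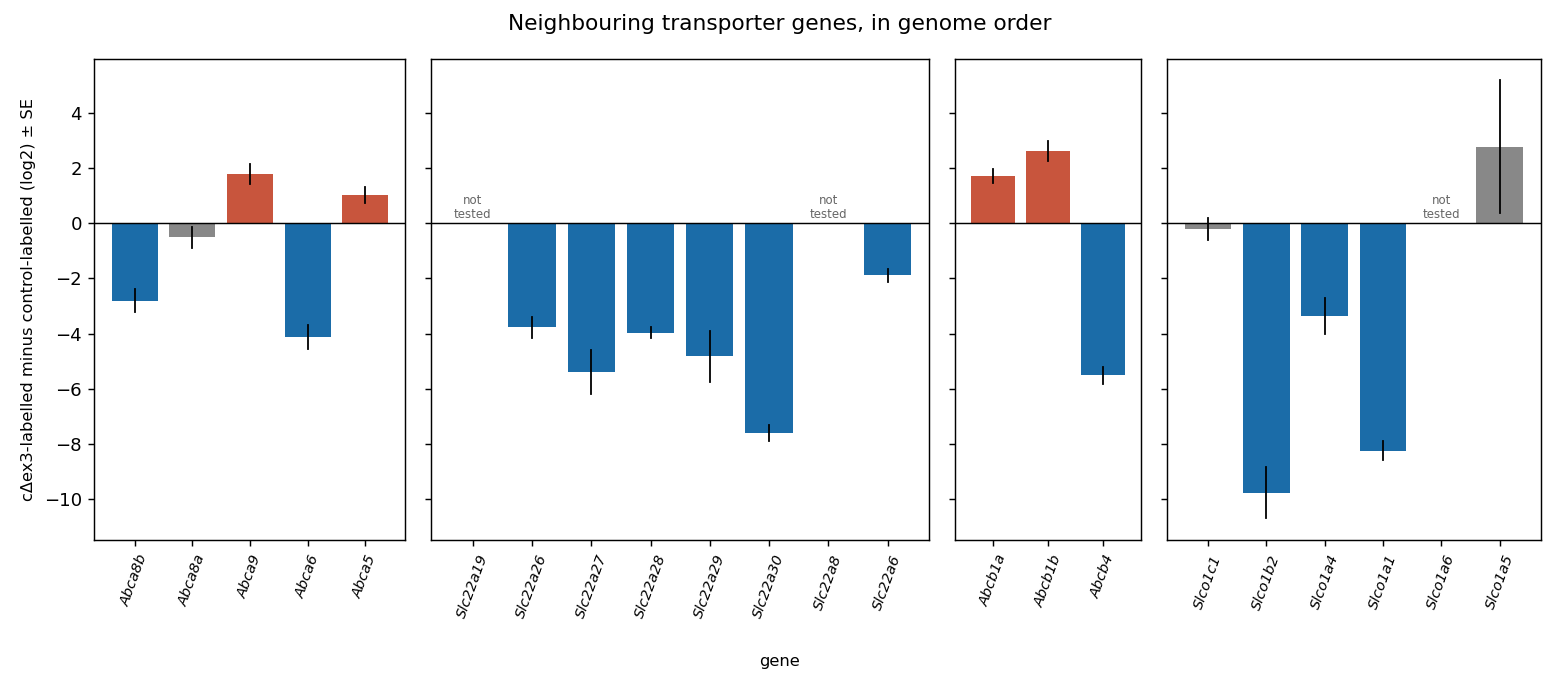
Difference (y axis, cΔex3-labelled minus control-labelled, log2, with bars of 1 SE) of the tested members of 4 runs of neighbouring transporter genes in genome order (x axis). Colours are red where higher, blue where lower and grey where the threshold was not passed. Slc22a27 and Slco1a5, with a group not well above background, are drawn at their fitted values, which are not measured sizes; the Abcb1a to Abcb4 run changes direction within 3 genes.

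Promoter letters differed little between the transporters and all 27025 promoters of the table, counted over the 250 bases before the start on both strands. The HNF1 half-site GTTAAT was present in 5.56% of 72 transporter promoters and 6.52% of all, the HNF4 core CAAAGTCC in 1.39% and 1.22%, and the TATA box TATAAA in 12.5% and 13%. The GC box GGGCGG was in 33.3% and 32.9%, the CCAAT box CCAAT in 29.2% and 34.5%, and the E-box CACGTG in 9.72% and 6.05%. No motif contains another of the list, and overlapping matches were each counted as present. In the sequences printed above, Slco1b2 has an HNF1 half-site at -66 and TATA matches at -234 and -227. The Abcg5 to Abcg8 interval has the reverse complement TTTATA at -31 from Abcg8, so that this match reads TATAAA on the strand of Abcg5. Abcb1b has a GC box at -48 and CCAAT matches at -87 and -66. Its neighbour Abcb4 has a GC box at -46 and a CCAAT match at -237, and Slc22a3 has an HNF4 core at -217. The matches at -66 in Abcb1b, -237 in Abcb4 and -217 in Slc22a3 are also reverse complements. Promoters of the 26 genes that fell held a median of 3.5 CpG dinucleotides, those of the 12 that rose 8.5 and those of the 21 that did not pass 12, beside 6 over all promoters; these are descriptions of letters, without a test.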

How the data were processed

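Per the labels, total RNA of sorted cells was linearly amplified, labelled with 1 dye and hybridised to 1-colour mouse arrays; groups came from the sample titles. Per the file headers, Agilent Feature Extraction 10.7.1.1 made the deposited intensity used here, the processed signal: linear, corrected for background and for spatial trend, and not normalised between arrays. Other deposited values, flags of 0 or 1, marked outlier spots and those well above background, and deposited median spot and local background intensity served the normexp alternative, in place of mean signals, which were not used here. The authors also deposited log2 values for the series; their background step is unknown, their scale and direction matched the normexp and quantile normalised values of each array (correlations of 0.9999 to 1, medians of 7.518 to 7.530), and they were an alternative only. On 1 slide and 1 scan, the 75th percentile of the intensity was 756 to 907 on control-labelled and 1348 to 2160 on cΔex3-labelled arrays, 69.0% to 82.7% of spots were well above background and 0 were saturated; the number of arrays limits the precision. Header and deposited name gave another slide number on 7 of 7 arrays and another position on 4; samples were taken from the deposit's record.

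Probes were named through their RefSeq accession and a gene table on GRCm38.p6, whereas the array's annotation uses mm9, so that no probe coordinates are given. Values were log2 of the processed signal relative to the 75th percentile of the array, without control and outlier spots. Of 55681 probes, 28026 had a gene name. Probes well above background on 3 or more of 7 arrays were tested, and the brightest such probe stood for its gene, giving 18031 genes; 13 of the 90 transporter genes were not tested. Groups were compared with limma 3.58.1 in R 4.3.3 (lmFit and eBayes, two-sided, no covariate) with Benjamini-Hochberg adjustment over the whole table, and every p-value and adjusted p printed comes from it, those of second probes from a fit over all tested probes. An adjusted p beside a bound belongs to the fitted difference. In a simulation of this comparison (18031 genes), 8 of 100 genes changed 2-fold and 49 of 100 changed 4-fold were recovered, with 3 false calls. Only these genes were changed there, whereas 4376 rose and 5132 fell in the data. The adjusted threshold was therefore stricter in the simulation, and its recovery does not carry over to the data.

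The transporter genes, role groups, marker lists and partner lists were chosen with earlier results of these data known. The genes named by rule were the 12 highest and 12 lowest differences past the threshold without overlap, the 2 smallest p-values in each role group and list, those just inside and outside the threshold, and Abcb11, Abcc2, Slco1b2, Slco1a1, Abca1, Abcg1, Abcc9, Abcg2, Abcb1a, Slco2a1 and Slc22a5; every other gene was picked with its values in view. Some genes that these rules named are not reported here, though counts over groups include them. The labels call the arrays biological replicates of separate mice. The control and cΔex3 arrays share replicate numbers, but same-numbered arrays did not deviate together (correlations of 0.039, -0.012 and -0.012), so they were not treated as pairs. In all, 20 alternatives were tried: other scaling, background, filter and probe rules, array weights, slide row, arrays of 1 mouse, the replicate block and each array left out.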

Additional observations from a re-analysis of the deposited data

Results flagged for a closer look

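In 5 of the 90 transporter genes, 1 of the 4 cΔex3-labelled arrays stood farther from the rest than the spread within the group allows by Dixon's criterion; chance flags about 1 in 20 groups. On array 4, Abcb5 stood at 3.18 with its nearest neighbour at -7.25, and that was the only array on which it was above background. Abcc8 was at 2.58 there with its nearest neighbour at -0.81 on its brighter probe (2.90 and -1.61 on the other), Slco4a1 at 3.05 against -1.83 and Abcc3 at 3.65 against 1.97. Abcc10 was instead low on array 2, at 0.44 with the nearest array at 0.83. Array 4 also carried the highest sums of epididymis (939) and germ cell (159) markers; whether these bear on the 4 genes was not tested. The control-labelled group of 3 is too small for this criterion.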

How the results depend on the processing

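Of the 49 calls, 35 were kept in every alternative that gave a value (27 falls and 8 rises), 14 were lost in at least 1, and 0 changed sign; 13 genes without a call passed in at least 1. The number of transporters that rose ranged from 11 with arrays of 1 mouse only to 19 with array weights, and that of falls from 26 with genes above background on all 7 arrays to 37 with array weights. Leaving out 1 array gave 13 to 18 rises and 30 to 33 falls. With the replicate block over the arrays numbered 1 to 3, 17 rose and 32 fell, and with slide row as a covariate 14 and 31. All 49 calls kept their direction within both slide rows, which held 2 control-labelled and 1 cΔex3-labelled arrays, and 1 and 3. For most called genes the groups do not overlap, so their direction was fixed in any such split and this is no check on slide row. With 1 array left out, Abcc8 ranged from -0.61 (adjusted p = 0.0145, without cΔex3 replicate 4) to 0.58. The median difference of all genes was -0.06, and it was -0.20 after normexp, 0.13 after quantile normalisation and 0.11 both after normexp with quantile normalisation and on the deposited log2 values; the last 3 changed the sign of Abca1 (0.29, 0.19 and 0.19), and none changed that of the 49 calls. The fitted size for genes dim in a group depends on the background step, as for Abcg8, from -8.55 to -3.69 over the alternatives. Small differences can be missed with 3 and 4 arrays, and the simulation, with few changed genes, does not measure how often.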

Other observations

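Outside the 3 families, probes of 1 gene disagreed for several transport partners, which were singled out after their values had been seen. For Slc10a1, the sodium-dependent bile acid uptake carrier of the hepatocyte, the brightest probe read 9.04, 9.30 and 9.17 in the controls against 8.50, 8.54, 8.48 and 8.16 in the cΔex3-labelled group (difference -0.75 ± 0.17), whereas a second probe went from 3.57, 4.13 and 2.80 to -5.50, -6.17, -5.78 and -4.81 (-9.06 ± 0.42), with 2 of these 4 arrays above background. The xenobiotic receptor gene Nr1i3 gave -3.68 ± 0.38 with the probe used and -9.94 ± 0.55 with the other, above background on 2 of 4 cΔex3-labelled arrays, so both larger sizes rest partly on dim spots. For Ptges, a prostaglandin E synthase gene, the signs were opposite, at -1.22 ± 0.17 and 3.17 ± 0.37, both past the threshold. The aromatic amino acid carrier Slc16a10 differed by -1.66 ± 0.24 with one probe and by 0.10 ± 0.23 with the other.

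As over the whole array, array pairs correlated more within groups than between them, but the values between groups were lower for the transporter genes. Over the 77 tested genes, correlations between array pairs were 0.969 to 0.988 within the control-labelled group, 0.834 to 0.971 within the cΔex3-labelled group and 0.358 to 0.471 between groups, which are across genes that are not independent replicates. Over all genes tested they were 0.979 to 0.984, 0.917 to 0.972 and 0.748 to 0.809. Array 4 was the lowest cΔex3-labelled array for 37 of the 77 genes and the highest for 21.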
